A study of Mus musculus with 16 samples.

Results

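The 9 genes described here encode transcription factors of the interferon regulatory factor (IRF) family, Irf1, Irf2, Irf3, Irf5, Irf7 and Irf9, and of the signal transducer and activator of transcription (STAT) family, Stat2, Stat3 and Stat6. They were found by symbol among the 54532 gene identifiers of the count tables (GENCODE M21 annotation of the mouse build GRCm38), and all 9 passed the filter on low counts in every comparison. Other members of both families were not analysed here, apart from Stat5a, tested as a neighbour that shares exon bases with Stat3.

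On GRCm38 the IRF genes lie at chr11:53770014-53778374 (Irf1, ENSMUSG00000018899, plus strand), chr8:46739732-46847458 (Irf2, ENSMUSG00000031627, plus), chr7:44997648-45002848 (Irf3, ENSMUSG00000003184, plus), chr6:29526625-29541871 (Irf5, ENSMUSG00000029771, plus), chr7:141262706-141266481 (Irf7, ENSMUSG00000025498, minus) and chr14:55603571-55610030 (Irf9, ENSMUSG00000002325, plus). The STAT genes lie at chr10:128270559-128292849 (Stat2, ENSMUSG00000040033, plus), chr11:100885098-100939540 (Stat3, ENSMUSG00000004040, minus) and chr10:127642986-127660957 (Stat6, ENSMUSG00000002147, plus).

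The 16 RNA-seq libraries came from mouse bone marrow cells that 7 days of M-CSF at 20 ng/mL, a macrophage growth factor, had turned into macrophages. For a further 24 h some received tumor-conditioned medium (TCM), a 70% share of medium taken from YUMM1.7 melanoma cells, a mouse line, and the others did not. Within the TRAP1 line, TRAP1 KO TCM is the knockout treated with it (n = 4), WT TCM the treated wild type (n = 3) and WT naive the untreated wild type (n = 3). Within the JMJD3 line, both groups were treated, and JMJD3 cKO TCM holds the conditional knockout (n = 3) and JMJD3 WT TCM the wild type (n = 3). TRAP1 is a mitochondrial chaperone, and JMJD3, the product of Kdm6b, is a histone demethylase. The labels give neither the ages of the mice, nor the driver or deleted exons of the conditional allele, nor whether a replicate stands for an animal or a culture of its own, so the spread behind each p-value may be technical.

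IRF and STAT proteins connect the sensing of microbes and cytokines to transcription. Irf3, Irf5 and Irf7 are activated downstream of sensors of foreign nucleic acid and induce type I interferons. Interferon in turn activates Stat2, which joins Irf9 in the complex ISGF3 and switches on antiviral genes, among them Irf7 and Stat2 themselves. Irf1 is an activator induced by interferon, and Irf2 can antagonise it at shared sites. Stat3 carries signals of the IL-6 and IL-10 receptors, and Stat6 those of IL-4 and IL-13, which in macrophages are known for the alternatively activated state.

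The promoters of 4 members are shown: Stat2, Irf1 and Irf7 had the widest ranges between group means, and Irf2, whose range was narrower than that of Stat3 or Irf5, held the most motifs. The sequences are from RefSeq (build GRCm38.p6), run 5′ to 3′ on the gene's strand from 250 bases before to 50 bases after the annotated start, and have every motif found in capitals. The first Irf1 start (chr11:53769764-53770063, plus strand) has a gamma-activated sequence (GAS), the Irf2 start (chr8:46739495-46739794, plus strand) an interferon-stimulated response element (ISRE), a GAS and an NF-kB motif, and the Stat2 start (chr10:128270248-128270547, plus strand) an ISRE and a GAS of the wider spacing that STAT6 prefers. The Irf7 start (chr7:141266375-141266674, minus strand) has none of the motifs searched.
Irf1: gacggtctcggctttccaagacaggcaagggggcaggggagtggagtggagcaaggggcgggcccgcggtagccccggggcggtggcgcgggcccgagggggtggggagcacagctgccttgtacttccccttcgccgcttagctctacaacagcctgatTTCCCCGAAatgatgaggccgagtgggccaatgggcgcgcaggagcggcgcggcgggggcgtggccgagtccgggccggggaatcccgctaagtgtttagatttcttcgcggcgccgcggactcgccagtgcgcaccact
Irf2: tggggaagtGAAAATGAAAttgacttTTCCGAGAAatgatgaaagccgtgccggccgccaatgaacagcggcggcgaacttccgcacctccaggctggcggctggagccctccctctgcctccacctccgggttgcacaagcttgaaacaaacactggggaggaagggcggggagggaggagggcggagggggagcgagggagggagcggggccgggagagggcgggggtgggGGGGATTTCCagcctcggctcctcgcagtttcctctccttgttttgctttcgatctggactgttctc
Irf7: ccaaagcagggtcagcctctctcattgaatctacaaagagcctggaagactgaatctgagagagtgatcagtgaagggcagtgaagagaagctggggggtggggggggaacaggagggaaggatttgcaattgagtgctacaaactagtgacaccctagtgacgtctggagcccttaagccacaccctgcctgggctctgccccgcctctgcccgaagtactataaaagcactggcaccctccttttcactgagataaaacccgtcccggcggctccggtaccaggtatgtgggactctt
Stat2: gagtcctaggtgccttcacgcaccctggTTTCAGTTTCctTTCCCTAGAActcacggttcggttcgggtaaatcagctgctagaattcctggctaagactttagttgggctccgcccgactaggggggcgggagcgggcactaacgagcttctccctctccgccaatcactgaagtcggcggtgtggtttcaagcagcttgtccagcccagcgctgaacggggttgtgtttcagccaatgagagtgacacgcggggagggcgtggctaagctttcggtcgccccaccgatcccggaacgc

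The search was for GAAA and GAAA with any 2 bases between them, on both strands (ISRE, bound by ISGF3 and IRF proteins), TTC and GAA with any 3 bases between them (GAS, bound by STAT dimers), the same with any 4 bases (the wider GAS), and GGG and TTTCC with any 2 bases between them, on both strands (NF-kB). The GAS letters read the same on both strands. Of 32851 mouse promoters of the same 300 bases, 3.44% had the ISRE, 8.30% the GAS, 6.95% the wider GAS and 1.63% the NF-kB motif. All 9 members matched the RefSeq table with 11 promoters, since Irf1 and Irf9 have a pair each. The GAS of Irf1 spanned bases -90 to -82 from the start. In Irf2 the ISRE spanned -241 to -232, the GAS -224 to -216 and the NF-kB motif -17 to -8. In Stat2 the ISRE lay on the minus strand at -222 to -213, and the wider GAS lay just downstream of it at -210 to -201. The first Irf9 start had a wider GAS at bases 2 to 11 after the start, and no match was found in the windows of Irf3, Irf5, Irf7, Stat3 and Stat6. No match says only that these letters are absent from the window, and a match is a description of the letters, not a binding site.

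**Figure D1:**
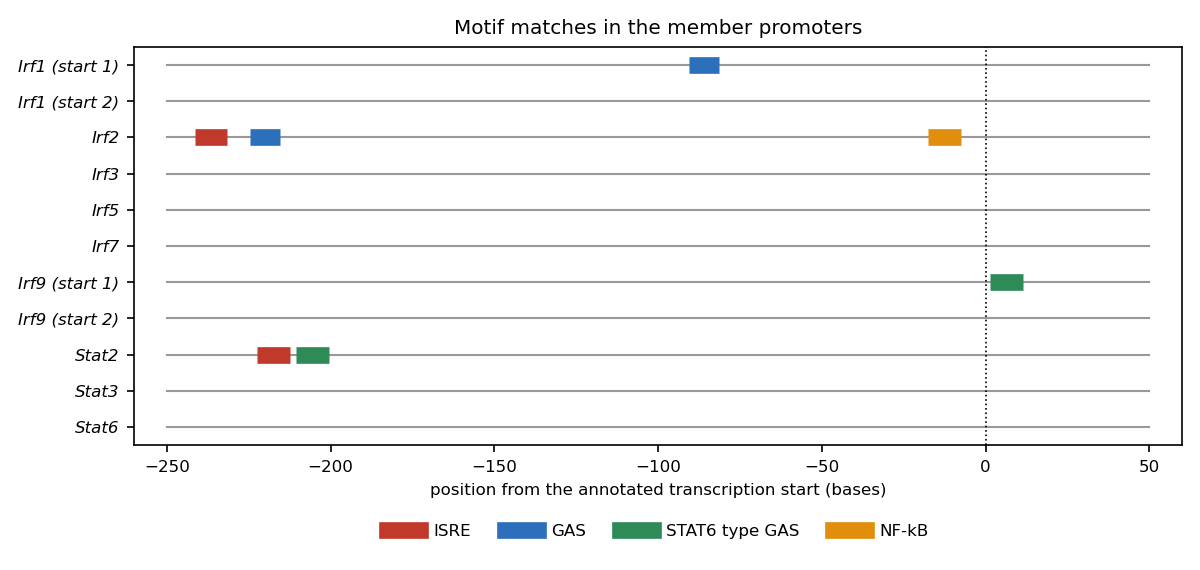
Motif matches (coloured marks) in the 11 RefSeq promoters of the 9 members, one row per promoter, along the distance in bases from the annotated start (horizontal axis). The ISRE is seen in Irf2 and Stat2, the GAS in Irf2 and in the first Irf1 promoter, and the wider GAS in Stat2 and in the first Irf9 promoter.

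Library totals ran from 15361604 to 22426820 counts, and levels are given in CPM, counts divided by the TMM-scaled library size and brought to 1 common scale. Trap1 had 3 counts over the TRAP1 KO TCM libraries together, against 3622 over the WT TCM libraries. Kdm6b was at 25.6 ± 1.02 CPM in the libraries labelled JMJD3 cKO TCM and 25.1 ± 1.69 CPM in JMJD3 WT TCM (SD, n = 3 each; log2 fold change 0.04, 95% interval -0.11 to 0.18). Counts summed over all exons cannot check a deletion of some of them. Xist, transcribed from the inactive X chromosome, was at 839.5 CPM or more in the 6 libraries of the JMJD3 line and at 0 or near 0 in the other 10, so sex and line cannot be told apart. Of 10 macrophage markers none was at 0 in any group. Their sum ran from 31697 to 31998 CPM in TRAP1 KO TCM, 31637 to 32057 in WT TCM, 20455 to 20759 in WT naive, 17380 to 17791 in JMJD3 cKO TCM and 20695 to 21026 in JMJD3 WT TCM. Much of the sum was Lyz2, with means of 17273, 17925, 7971, 4577 and 7417 CPM in that order of groups. Adgre1, Cd68 and Fcgr1 were lower in WT TCM than in WT naive, and the rest higher. Csf1r, Mertk, C1qa, C1qb and Cd14 were higher in TRAP1 KO TCM than in WT TCM, and the rest lower, although the sums were alike. Cd14, for example, had a mean of 1190 CPM in TRAP1 KO TCM and 840 in WT TCM, and Cd68 1418 and 1758. Csf1r, Adgre1, Itgam and C1qa were higher in JMJD3 cKO TCM than in JMJD3 WT TCM, and the rest lower.

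Per length, Irf7 was the most abundant of the 9 genes in all 5 groups. In WT TCM it stood at 320.3 CPM per kb of exon, ahead of Irf5 at 90.4, Stat2 at 75.4 and Stat6 at 67.5 CPM per kb. Irf9 (21.4), Stat3 (20.1), Irf1 (19.8), Irf3 (12.7) and Irf2 (9.33) followed in the same unit. Across groups the members ranged very unequally: the ratio of the highest to the lowest group mean in CPM was 3.15 for Stat2, 3.01 for Irf1, 2.81 for Irf7 and 2.19 for Stat3. It was 1.86 for Irf5, 1.52 for Irf2, 1.18 for Irf3, 1.17 for Irf9 and 1.14 for Stat6. JMJD3 WT TCM had the highest mean of 7 members, and TRAP1 KO TCM had the highest mean of Irf3 and Stat6.

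**Figure D2:**
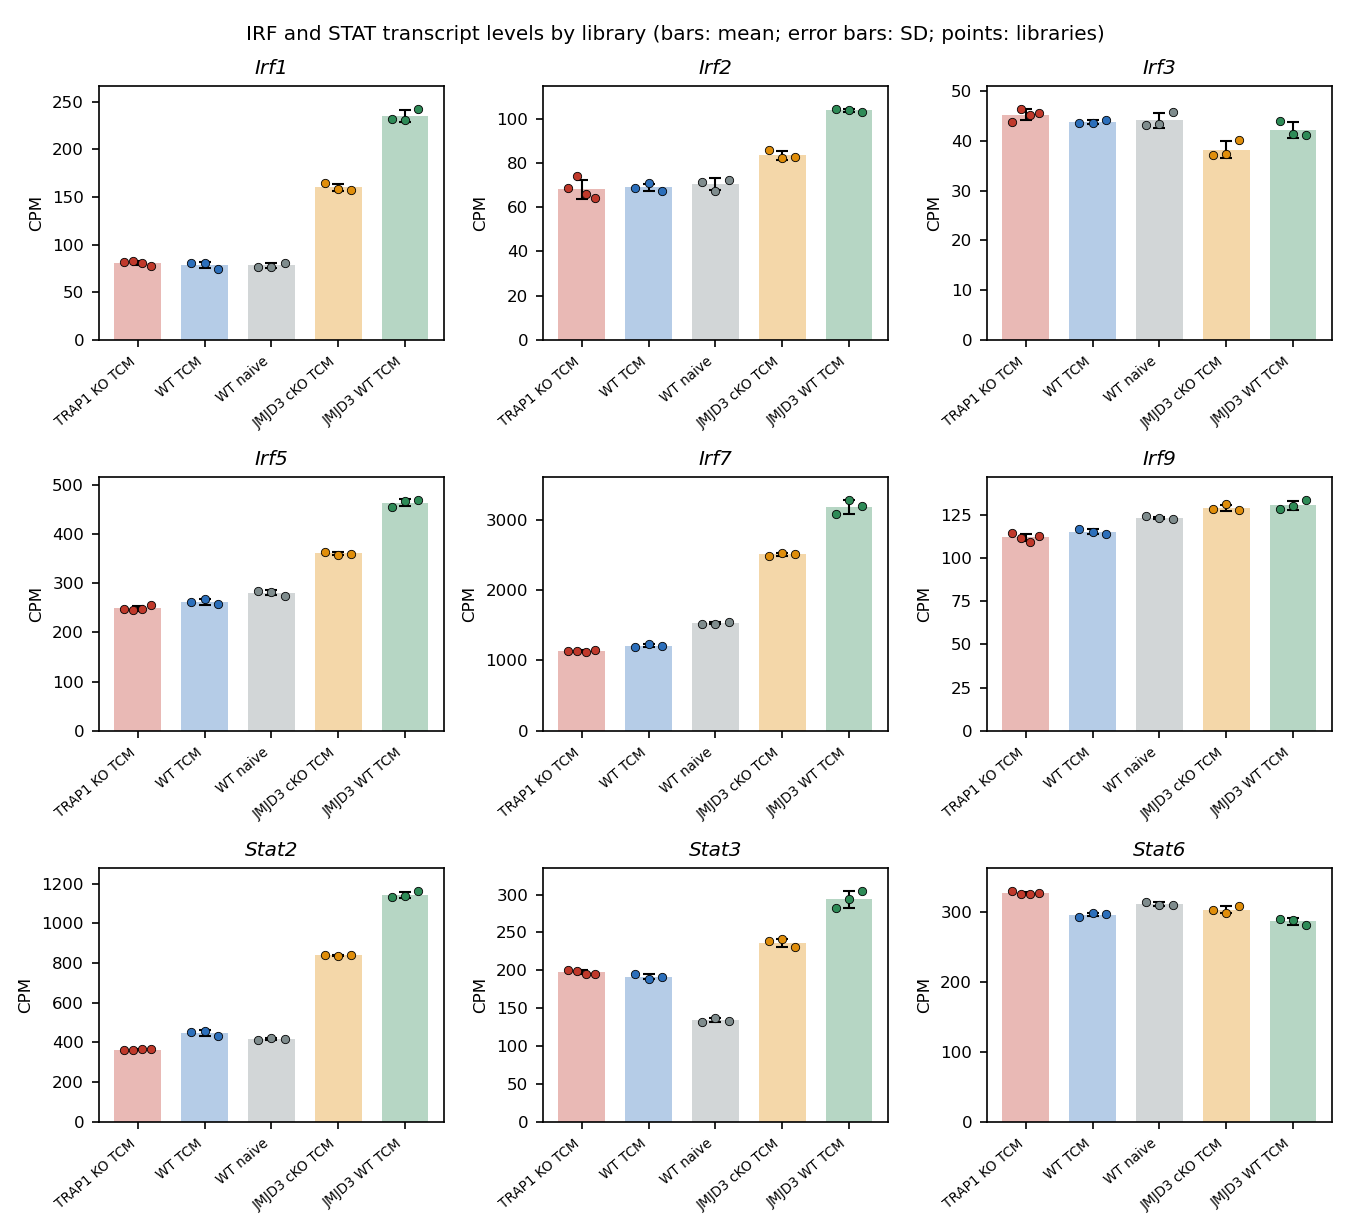
Level of each of the 9 members (CPM on TMM-scaled totals, vertical axis, 1 panel per gene) in each of the 16 libraries (points) with the group mean and SD, groups from left to right. Irf1, Irf7 and Stat2 are high in both groups of the JMJD3 line, while Irf3, Irf9 and Stat6 differ little between groups.

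The first comparison asked what TCM does to wild-type macrophages. With TCM, Stat3 was 1.43-fold higher and Irf7 1.26-fold lower than without it, and Stat2, Irf5, Irf9 and Stat6 changed by less than 1.1-fold. Of the 9 members 2 were called higher and 4 lower (edgeR quasi-likelihood test, adjusted p under 0.05), while 42.2% of the 14078 genes tested were called (21.6% higher and 20.6% lower). The median log2 fold change was -0.03 over the members and -0.01 over all genes. The same 6 members had libraries that did not overlap between the groups, as did 50.1% of all genes tested. In a whole culture, fewer cells of a type and less RNA per cell cannot be told apart.

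Among the sensor-activated factors, Irf7, the amplifier of interferon production, measured 1189.9, 1229 and 1209 CPM in the WT TCM libraries, against 1521, 1515 and 1545 CPM in the WT naive libraries. Every WT TCM library was below every WT naive library (log2 fold change -0.34 ± 0.02 SE, adjusted p 8.8e-36 by edgeR). Irf5, which promotes inflammatory cytokine genes, measured 261, 269 and 258 CPM with TCM and 284, 283 and 275 CPM without it. It fell by less, with a log2 fold change of -0.10 ± 0.02 (SE, adjusted p 0.00036 by edgeR). Irf3, the constitutive factor that needs phosphorylation to act, was at 43.6, 43.7 and 44.3 CPM with TCM and at 43.3, 43.4 and 45.9 CPM without it. Its libraries overlapped and it was not called (log2 fold change -0.01, 95% interval -0.11 to 0.08).

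Irf9, the DNA-binding part of ISGF3, was at 117, 115 and 114 CPM in WT TCM and at 124, 123 and 123 CPM in WT naive (log2 fold change -0.10 ± 0.03, adjusted p 0.0083 by edgeR). Its partner Stat2 moved the other way, with 453, 458 and 429.7 CPM in WT TCM, against 409.7, 419.8 and 416 CPM in WT naive. The libraries of both genes were apart, and the Stat2 log2 fold change was 0.11 ± 0.02 (SE, adjusted p 8.1e-06 by edgeR). The pair Irf1 and Irf2 was not called. Irf1 was at 80.9, 80.1 and 74.8 CPM in WT TCM and at 76.8, 76.7 and 80.7 CPM in WT naive, and Irf2 at 68.9, 70.8 and 67.3 CPM in WT TCM and at 71.5, 67.5 and 72.5 CPM in WT naive. Both overlapped, with 95% intervals of the log2 fold change of -0.06 to 0.09 for Irf1 and -0.11 to 0.05 for Irf2.

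Stat3 made the largest change of the 9 members with TCM. It measured 195, 188 and 191 CPM in the WT TCM libraries, against 132, 137 and 133 CPM in the WT naive libraries. The groups were far apart relative to their spread (log2 fold change 0.51 ± 0.03 SE, adjusted p 7.5e-31 by edgeR). Stat6 measured 294, 299 and 297 CPM in WT TCM and 316, 310.2 and 311 CPM in WT naive, and was slightly lower with TCM (log2 fold change -0.07 ± 0.02, adjusted p 0.0031 by edgeR).

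The second comparison asked what loss of TRAP1 does under TCM. WT TCM, treated in the comparison above, is the control here, so the log2 fold changes of both share these libraries. Stat2 was 1.22-fold lower and Stat6 1.11-fold higher in TRAP1 KO TCM, and Irf7 and Irf5 were lower by 1.06-fold and 1.05-fold. Of the 9 members 1 was called higher and 3 lower, with 42.2% of the 14078 genes called (21.2% higher and 21% lower), so the share of members called was close to that of all genes. The libraries of 5 members did not overlap, against 43% of all genes tested. The median log2 fold change was -0.01 over the members and 0.01 over all genes.

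Stat2 measured 363, 361, 366 and 366 CPM in the TRAP1 KO TCM libraries, against 453, 458 and 429.7 CPM in the WT TCM libraries. All TRAP1 KO TCM libraries were also below the WT naive libraries, whose lowest was 409.7 CPM. The log2 fold change was -0.29 ± 0.02 (SE, adjusted p 4e-24 by edgeR), the largest change of the 9 members in this comparison. Irf9, its partner, was at 114, 112, 109.7 and 113 CPM in TRAP1 KO TCM and at 117, 115 and 114 CPM in WT TCM, and was not called (log2 fold change -0.04, 95% interval -0.09 to 0.02).

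Stat6 measured 331, 326, 327 and 328 CPM in TRAP1 KO TCM, against 294, 299 and 297 CPM in WT TCM. Every knockout library was higher, and the log2 fold change was 0.15 ± 0.02 (SE, adjusted p 4.3e-10 by edgeR). Stat3 measured 201, 199, 195 and 195 CPM in TRAP1 KO TCM and 195, 188 and 191 CPM in WT TCM. The highest WT TCM library lay just under the lowest TRAP1 KO TCM library, and Stat3 was not called (log2 fold change 0.05 ± 0.02, adjusted p 0.077 by edgeR).

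Irf7 measured 1138, 1134, 1120.4 and 1142 CPM in TRAP1 KO TCM, against 1189.9, 1229 and 1209 CPM in WT TCM (log2 fold change -0.09 ± 0.01, adjusted p 3.6e-07 by edgeR). Irf5 measured 249, 245, 247 and 256 CPM in TRAP1 KO TCM, against 261, 269 and 258 CPM in WT TCM (log2 fold change -0.07 ± 0.02, adjusted p 0.010 by edgeR). Both were lower in every knockout library, but the Irf5 difference was no longer called without WT TCM replicate 2 (log2 fold change -0.05, adjusted p 0.107 by edgeR). Irf1, Irf2 and Irf3 overlapped and were not called. Irf1 was at 77.4 to 82.6 CPM in TRAP1 KO TCM and 74.8 to 80.9 CPM in WT TCM (95% interval of the log2 fold change -0.03 to 0.11). Irf2 was at 64.1 to 74.0 CPM in TRAP1 KO TCM and 67.3 to 70.8 CPM in WT TCM (interval -0.09 to 0.07). Irf3 was at 43.9 to 46.5 CPM in TRAP1 KO TCM and 43.6 to 44.3 CPM in WT TCM (interval -0.03 to 0.15).

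The third comparison set the libraries labelled JMJD3 cKO TCM against JMJD3 WT TCM. The members mostly fell together: 6 were called lower and 1 higher, while 35.1% of the 13476 genes tested were called (17.8% lower and 17.3% higher). The median log2 fold change was -0.31 over the members and 0.01 over all genes, and 8 members had libraries that did not overlap, against 44.9% of all genes tested. Irf1 was 1.46-fold lower, Stat2 1.36-fold, Irf5 1.28-fold, Irf7 1.27-fold, and Irf2 and Stat3 1.24-fold each.

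Irf1 measured 164, 159 and 158 CPM in JMJD3 cKO TCM, against 232, 231 and 242 CPM in JMJD3 WT TCM (log2 fold change -0.55 ± 0.03, adjusted p 3e-18 by edgeR). Its antagonist Irf2 measured 85.8, 82.2 and 82.7 CPM in JMJD3 cKO TCM, against 104, 104 and 103 CPM in JMJD3 WT TCM (log2 fold change -0.31 ± 0.04, adjusted p 2.1e-08 by edgeR). Neither gene's libraries overlapped, and the activator fell by more than its antagonist on the log2 scale, a contrast between genes that was not tested. These are the 2 members with a GAS of the usual spacing in the promoters printed above, a description that holds no test. Stat2, Irf5, Irf7 and Stat3 had no such GAS in the windows searched and were also called lower (log2 fold changes -0.44, -0.36, -0.34 and -0.31).

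Irf7 measured 2477, 2529 and 2508 CPM in JMJD3 cKO TCM, against 3078, 3278 and 3190.2 CPM in JMJD3 WT TCM (log2 fold change -0.34 ± 0.02, adjusted p 4.5e-16 by edgeR). Irf5 measured 364, 358 and 360.0 CPM in JMJD3 cKO TCM, against 456, 467 and 469 CPM in JMJD3 WT TCM (log2 fold change -0.36 ± 0.03, adjusted p 8e-15 by edgeR). Both were lower in all cKO libraries. Irf3 measured 37.2, 37.4 and 40.3 CPM in JMJD3 cKO TCM and 44.0, 41.4 and 41.2 CPM in JMJD3 WT TCM. The groups were apart by less than 1 CPM at their nearest libraries, and Irf3 was not called (log2 fold change -0.14 ± 0.06, adjusted p 0.062 by edgeR), although a fit of all 16 libraries called it (log2 fold change -0.14, adjusted p 0.032).

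The ISGF3 partners separated in this comparison. Stat2 measured 839, 837 and 840.5 CPM in JMJD3 cKO TCM, against 1132, 1138 and 1162 CPM in JMJD3 WT TCM (log2 fold change -0.44 ± 0.02, adjusted p 1.6e-19 by edgeR). Irf9 measured 129, 131 and 128 CPM in JMJD3 cKO TCM and 128, 130.0 and 134 CPM in JMJD3 WT TCM. The Irf9 libraries overlapped, and its log2 fold change was -0.01 with a 95% interval of -0.08 to 0.06. The 2 changes were not tested against each other.

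Stat3 measured 238, 241 and 230.3 CPM in JMJD3 cKO TCM, against 282, 294 and 305 CPM in JMJD3 WT TCM (log2 fold change -0.31 ± 0.03, adjusted p 5.4e-11 by edgeR). Stat6 measured 304, 299 and 309 CPM in JMJD3 cKO TCM, against 290.2, 289.7 and 282 CPM in JMJD3 WT TCM. Stat3 was lower and Stat6 slightly higher in every cKO library, and the Stat6 log2 fold change was 0.09 ± 0.03 (SE, adjusted p 0.016 by edgeR). The Stat6 call was lost without JMJD3 WT TCM replicate 3 (0.07, adjusted p 0.115) and without JMJD3 cKO TCM replicate 3 (0.07, adjusted p 0.103 by edgeR).

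**Figure D3:**
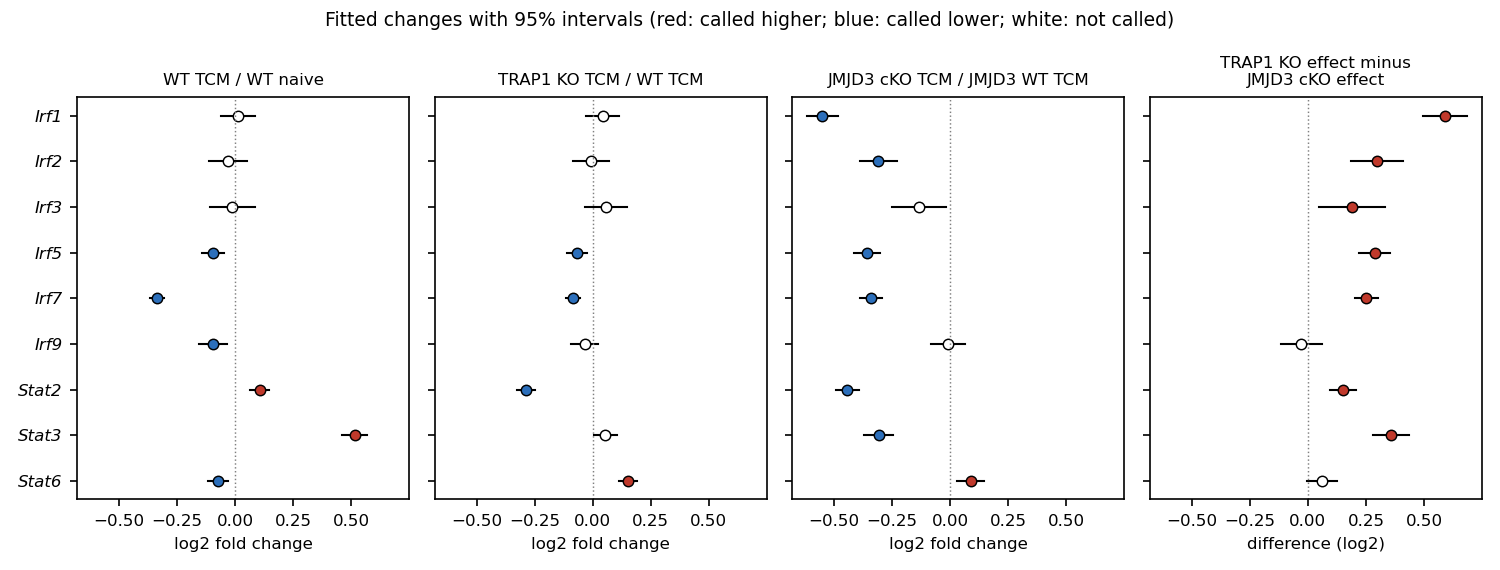
Log2 fold change (points) with its 95% interval (lines) of each of the 9 members (rows) in the 3 comparisons within lines and, in the rightmost panel, the difference between the knockout effects in log2 units; red points were called higher, blue points lower and white points not called. Stat3 is the highest with TCM, Stat2 the lowest with TRAP1 loss, and Irf1 the lowest in JMJD3 cKO TCM, where 6 members lie to the left of 0 beyond their intervals and were called.

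The 2 knockout effects were then compared directly. The difference, the TRAP1 KO effect minus the JMJD3 cKO effect on the log2 scale, was positive and called for 7 of the 9 members and negative and called for 0, while 37.9% of the 14545 genes tested were called (18.4% positive and 19.5% negative). It was largest for Irf1 (0.59 ± 0.05 SE, adjusted p 1.6e-19 by edgeR) and Stat3 (0.36 ± 0.04, adjusted p 2.1e-13 by edgeR). Irf2 (0.30), Irf5 (0.29), Irf7 (0.25), Irf3 (0.19) and Stat2 (0.15) followed. Stat2, Irf7 and Irf5 were called lower in both knockouts and fell by more on the log2 scale in JMJD3 cKO TCM. Irf9 (-0.03, 95% interval -0.12 to 0.06) and Stat6 (0.06, -0.01 to 0.13) were not called. The Irf3 difference was lost under DESeq2 (adjusted p 0.059), without scaling beyond library totals (0.12, adjusted p 0.184), and without TRAP1 KO TCM replicate 2, WT TCM replicate 1 or 2, JMJD3 cKO TCM replicate 1 or 2, or JMJD3 WT TCM replicate 1, left out in turn (0.15 to 0.18, adjusted p 0.055 to 0.113 by edgeR). Genotype, line and sex cannot be told apart in this difference.

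Of the 4 comparisons between groups described here, that between the wild types of the lines had the largest log2 fold change for 7 members. In JMJD3 WT TCM against WT TCM 7 members were called higher and 0 lower, with 61.3% of the 14545 genes called (30% higher and 31.3% lower). The libraries of 8 members did not overlap, against 64.2% of all genes tested. Irf1 was 2.99-fold higher, Irf7 2.63-fold and Stat2 2.56-fold (log2 fold changes 1.58 ± 0.03, 1.40 ± 0.02 and 1.36 ± 0.02). Irf5 was 1.77-fold, Stat3 1.53-fold, Irf2 1.5-fold and Irf9 1.13-fold higher, the Irf9 adjusted p being 2.2e-06 by edgeR. Irf3 (-0.05, adjusted p 0.39) and Stat6 (-0.05, adjusted p 0.085 by edgeR) were not called. With library totals in place of TMM scaling, which moved the median log2 fold change of all genes by -0.17, Irf3 and Stat6 were called lower (-0.22 and -0.21) and Irf9 was no longer called (0.01, adjusted p 0.775). These groups also differ in line, in sex and in whatever else set the 2 sets of libraries apart.

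The order of the group means was alike for Irf5 and Irf7, which ran from JMJD3 WT TCM down through JMJD3 cKO TCM, WT naive and WT TCM to TRAP1 KO TCM, with every step called in the fit of all 16 libraries. Stat2 had the same 2 groups on top, then WT TCM, WT naive and TRAP1 KO TCM, again with every step called. For Irf1 and Irf2 only the 2 steps above the TRAP1 line were called, and the 3 groups of that line did not differ beyond their spread. For Stat3 the step between TRAP1 KO TCM and WT TCM was not called (adjusted p 0.18 by edgeR), while WT naive stood below all other groups. Irf3 had JMJD3 cKO TCM at the bottom, the only called step (adjusted p 0.032 by edgeR). For Irf9 only the step between WT naive and WT TCM was called (adjusted p 0.013), and for Stat6 only that between TRAP1 KO TCM and WT naive (adjusted p 0.0047 by edgeR).

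By the likeness of their centred log2 CPM over the 16 libraries, the 2 genes nearest to each member called with both TCM and TRAP1 loss were named. For Stat2 they were Trafd1 and Ifih1, an RNA sensor (root mean square differences of 0.0700 and 0.0769 log2 units among 9830 genes). For Irf7 they were Stx3 and H2-T23 (0.0707 and 0.0714), for Irf5 Sppl2a and Adar (0.0508 and 0.0525), and for Stat6 Fes and Sh3bgrl (0.0347 and 0.0388). The root mean square deviation of each member from its own mean was 0.644 for Stat2, 0.589 for Irf7, 0.334 for Irf5 and 0.069 for Stat6. Stat6 varied so little that its small differences say less about likeness. The genes share these libraries, so likeness over them is a description.

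The ligands upstream of the members were scarce. Of 10 interferon genes none passed the filter in the TRAP1 line, and only Ifnb1, the interferon beta gene, did in the JMJD3 line. Ifnb1 had 0 counts in all 4 TRAP1 KO TCM libraries and 0, 1 and 1 counts in WT TCM, against 7, 1 and 5 in WT naive. In the JMJD3 line it had 8, 8 and 14 counts in JMJD3 cKO TCM, against 41, 40 and 40 in JMJD3 WT TCM. The ratio of the cKO to the wild-type level was 0.191 (exact 95% interval 0.124 to 0.287, counting error only; log2 fold change -2.37 ± 0.34, adjusted p 3.7e-08 by edgeR). JMJD3 WT TCM was 70.3 times the WT TCM level, with an interval of 19.0 to 587 because WT TCM held 2 counts.

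Of 8 tested interferon receptors and JAK kinases, 6 rose and 1 fell in WT TCM against WT naive (median log2 fold change 0.13), 4 rose and 1 fell in TRAP1 KO TCM against WT TCM (median 0.05), and 1 rose and 3 fell in JMJD3 cKO TCM against JMJD3 WT TCM (median -0.03). Beside this list and those below, 21.6% of all genes tested rose and 20.6% fell in WT TCM. The shares were 21.2% and 21% in TRAP1 KO TCM, and 17.3% and 17.8% in JMJD3 cKO TCM. No list was tested as a set. Ifngr1, a chain of the interferon gamma receptor, rose in all 3, by 0.50, 0.26 and 0.24 on the log2 scale. Jak2 was at 65.3 ± 1.86 CPM in JMJD3 cKO TCM, against 102 ± 4.49 CPM in JMJD3 WT TCM (log2 fold change -0.64), and Tyk2, a kinase of the interferon alpha receptor, fell by 0.38 on the log2 scale.

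Of 12 tested ligands and receptors that signal through Stat3 or Stat6, 7 rose and 4 fell in WT TCM, 7 rose and 2 fell in TRAP1 KO TCM, and 1 rose and 9 fell in JMJD3 cKO TCM (median log2 fold changes 0.33, 0.21 and -0.30). Il4ra, the receptor chain upstream of Stat6, was at 475 ± 6.19 CPM in WT TCM, against 172 ± 2.92 CPM in WT naive (log2 fold change 1.47). It was at 776 ± 10.6 CPM in TRAP1 KO TCM, against the same 475 CPM in WT TCM (0.72), and at 542 ± 8.49 CPM in JMJD3 cKO TCM, against 694 ± 6.51 CPM in JMJD3 WT TCM (-0.35). Il4ra changed by more than Stat6 itself in each comparison on the log2 scale. Csf3r, the G-CSF receptor, rose by 0.57 on the log2 scale in TRAP1 KO TCM and fell by 0.71 in JMJD3 cKO TCM.

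The 23 tested sensors and adaptors that activate IRF proteins were mixed in the TRAP1 line, with 10 up and 6 down in WT TCM and 6 up and 9 down in TRAP1 KO TCM (median log2 fold changes 0.06 and -0.02). In JMJD3 cKO TCM 2 rose and 14 fell (median -0.17). Ikbke, a kinase of Irf3 and Irf7, was at 358 ± 5.31 CPM in TRAP1 KO TCM, against 256 ± 7.27 CPM in WT TCM (log2 fold change 0.49). Tlr9, a DNA sensor, fell by 0.69 in TRAP1 KO TCM and by 0.70 in JMJD3 cKO TCM on the log2 scale.

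Of 18 tested negative regulators, 6 rose and 3 fell in WT TCM, 7 rose and 5 fell in TRAP1 KO TCM, and 1 rose and 9 fell in JMJD3 cKO TCM (median log2 fold changes 0.01, 0.06 and -0.10). Socs3, a Stat3 target that restrains IL-6 signalling, was at 11.3 ± 0.83 CPM in WT TCM, against 2.15 ± 0.483 CPM in WT naive (log2 fold change 2.40). It was at 18.4 ± 1.08 CPM in TRAP1 KO TCM, against 11.3 CPM in WT TCM (0.70), and at 17.4 ± 1.8 CPM in JMJD3 cKO TCM, against 33.6 ± 0.419 CPM in JMJD3 WT TCM (-0.95). Usp18, an interferon-induced brake on the interferon alpha receptor, fell in all 3 comparisons, by 0.77, 0.30 and 0.85 on the log2 scale.

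Among the genes known as targets of the members, those of ISGF3 fell in most cases. Of 30 tested, 25 fell and 2 rose in WT TCM, 22 fell and 5 rose in TRAP1 KO TCM, and 30 fell in JMJD3 cKO TCM, with median log2 fold changes of -0.34, -0.27 and -0.47. In WT TCM they fell while Stat2 was called higher and Irf9 and Irf7 lower. Rsad2, an antiviral enzyme, was at 118 ± 2.73 CPM in TRAP1 KO TCM, against 202 ± 5.4 CPM in WT TCM (-0.77), and at 1274 ± 34.2 CPM in JMJD3 cKO TCM, against 3606 ± 136 CPM in JMJD3 WT TCM (-1.50). All 30 were called higher in JMJD3 WT TCM than in WT TCM (median 1.83). The list shares Ifih1, Ddx58, Dhx58 and Zbp1 with the sensors.

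Of 15 tested Irf1 targets, 10 fell and 2 rose in WT TCM, 10 fell and 1 rose in TRAP1 KO TCM, and 15 fell in JMJD3 cKO TCM (median log2 fold changes -0.25, -0.23 and -0.49). Irf1 itself was called in JMJD3 cKO TCM only of these 3 comparisons. Ccl5, a chemokine, was at 159.6 ± 3.46 CPM in TRAP1 KO TCM, against 639.8 ± 21.7 CPM in WT TCM (a 3.99-fold lower level). Gbp3, an interferon-induced GTPase, was at 129 ± 5.39 CPM in JMJD3 cKO TCM, against 268 ± 5.61 CPM in JMJD3 WT TCM (-1.05).

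Of 20 tested Stat3 targets, 12 rose and 5 fell in WT TCM, 12 rose and 4 fell in TRAP1 KO TCM, and 1 rose and 16 fell in JMJD3 cKO TCM (median log2 fold changes 0.28, 0.23 and -0.46). Their log2 fold changes ran from -4.03 to 2.40 in WT TCM, from -0.23 to 1.64 in TRAP1 KO TCM and from -1.29 to 0.22 in JMJD3 cKO TCM. The difference between the knockout effects was positive and called for 18 of the 20 and negative and called for 0. Vegfa, a vessel growth factor, was at 105 ± 1.42 CPM in WT TCM, against 24.3 ± 2.13 CPM in WT naive (2.11), and Il1rn, the IL-1 receptor antagonist, was at 384 ± 6.4 CPM in JMJD3 cKO TCM, against 939.9 ± 47.2 CPM in JMJD3 WT TCM (-1.29).

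The Stat6 targets had no shared direction in the JMJD3 line. Of 13 tested, 7 rose and 4 fell in WT TCM, 8 rose and 4 fell in TRAP1 KO TCM, and 4 rose and 5 fell in JMJD3 cKO TCM (medians 0.47, 0.67 and 0.00). Mrc1, the mannose receptor, was at 2601 ± 46.3 CPM in WT TCM, against 606 ± 7.17 CPM in WT naive (log2 fold change 2.10), and at 3674 ± 30.2 CPM in TRAP1 KO TCM, against that WT TCM level (0.51). Arg1, arginase 1, was at 21.9 ± 1.19 CPM in TRAP1 KO TCM, against 1.84 ± 0.223 CPM in WT TCM (3.59). Over the list the log2 fold changes ran from -4.28 to 3.44 in WT TCM and from -2.95 to 3.59 in TRAP1 KO TCM. In JMJD3 cKO TCM they ran from -1.94 to 1.81. Some genes stand in several lists, among them Il4ra and Socs3.

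**Figure D4:**
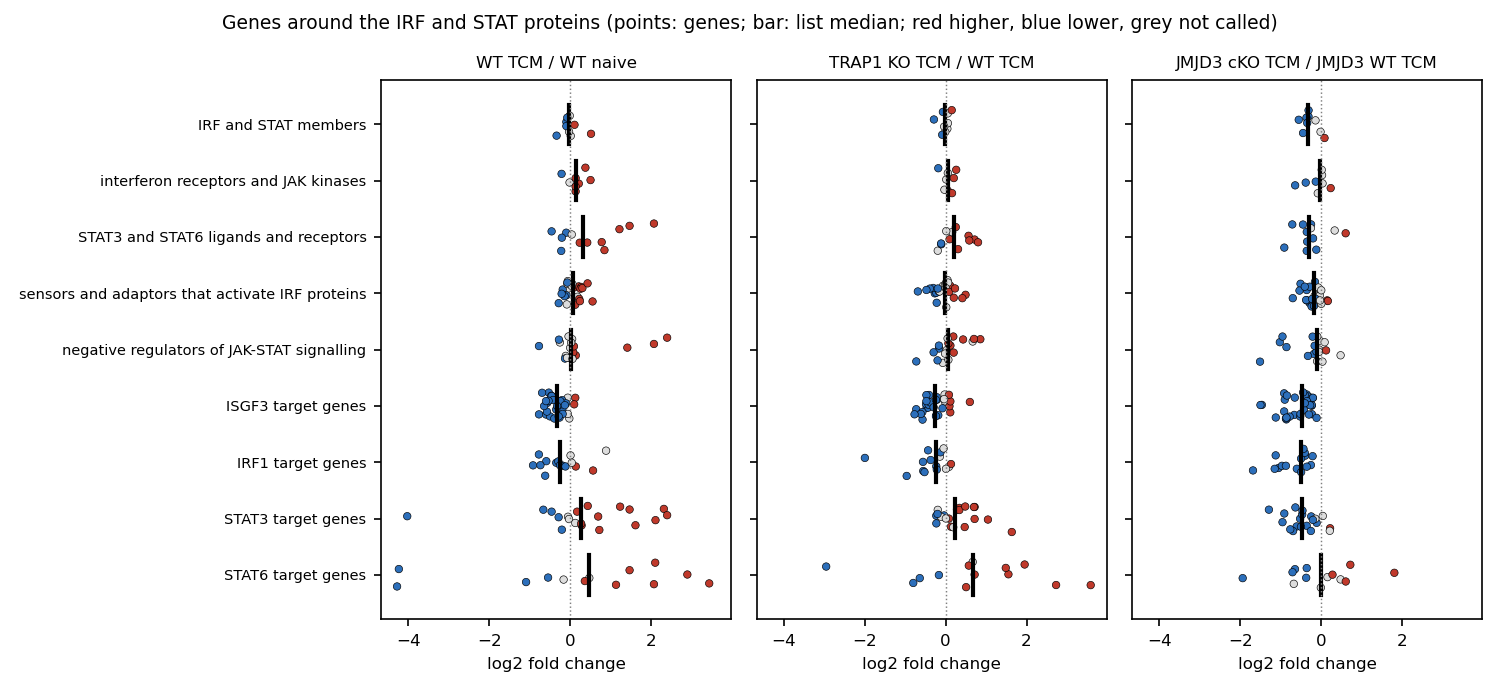
Log2 fold change (horizontal axis) of every tested gene (points) of the members and of each pathway list (rows) in the 3 comparisons within lines, with the list median as a black bar; red points were called higher, blue points lower and grey points not called. Of 30 ISGF3 targets 25 fell in WT TCM, 22 in TRAP1 KO TCM and 30 in JMJD3 cKO TCM, whereas the Stat3 targets rose more often than they fell in the first 2.

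Markers of other cells moved with some groups. Summed over 9 markers, the neutrophil and precursor list ran from 3.50 to 4.97 CPM in TRAP1 KO TCM, 4.08 to 5.57 in WT TCM, 50.1 to 54.1 in WT naive, 39.2 to 40.9 in JMJD3 cKO TCM and 21.2 to 25.3 in JMJD3 WT TCM. Of these markers 1 was at 0 in TRAP1 KO TCM, 2 in WT TCM and 1 in JMJD3 WT TCM. The 7 fibroblast markers summed to 4.97 to 7.00 CPM in TRAP1 KO TCM, 0.165 to 0.454 in WT TCM and 14.2 to 15.3 in WT naive. The 7 dendritic cell markers summed to 5.84 to 6.63 CPM in JMJD3 cKO TCM and 9.63 to 11.7 in JMJD3 WT TCM. Most of that difference was Xcr1, with means of 3.20 and 7.86 CPM. Of the other dendritic cell markers, Flt3, Zbtb46, Siglech and Ccr9 were higher in JMJD3 cKO TCM, and Clec9a and Ccr7 lower. The 7 T and NK cell markers summed to 18.0 to 20.2 CPM in TRAP1 KO TCM, 28.4 to 29.9 in WT TCM, 15.03 to 15.67 in WT naive, 33.6 to 35.9 in JMJD3 cKO TCM and 33.1 to 35.1 in JMJD3 WT TCM, of which Cd4 made up nearly all. The 7 melanoma markers summed to 89.8 to 95.8 CPM in TRAP1 KO TCM, 80.4 to 90.0 in WT TCM, 78.8 to 87.0 in WT naive, 88.8 to 95.5 in JMJD3 cKO TCM and 103 to 106 in JMJD3 WT TCM. Nearly all of that sum was Mitf, a transcription factor that macrophages also express. Of the other melanoma markers Tyr and Tyrp1 had 0 counts in every group, Pmel 9 to 26 counts a group, and Mlana, Dct and Sox10 at most 3 counts a group. All these sums are small beside the macrophage sums, and their part in the results was not tested.

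Some members share exon bases with a neighbouring gene, and no source used here gives the strand setting of the counting. The longest such stretch was 411 bases of Irf5 with Tnpo3 on the other strand (14.1% of the Irf5 exon length). Next came 135 bases of Irf1 with Gm17334 on the other strand (3.40%) and 123 bases of Irf9 with Rnf31 on the same strand (2.28%). Gm17334 held 0.66% as many counts as Irf1, and Rnf31 84.3% as many as Irf9. Tnpo3 was not called in WT TCM against WT naive, in TRAP1 KO TCM against WT TCM or in JMJD3 cKO TCM against JMJD3 WT TCM (log2 fold changes 0.00, -0.03 and 0.08), where Irf5 was called each time. Rnf31 fell by 0.52 on the log2 scale in JMJD3 cKO TCM and by 0.11 in TRAP1 KO TCM, where Irf9 was not called. It was not called in WT TCM (0.01), where Irf9 was lower. In JMJD3 WT TCM against WT TCM each of these neighbours was called. Rnf31 was higher by 1.19 there and Irf9 by 0.18, and Gm17334 by 1.51 and Irf1 by 1.58. Tnpo3 was lower by 0.10 while Irf5 was higher by 0.82. Stat5a, another STAT gene, shared 72 bases with Stat3 on the other strand (0.76%). It was higher by 0.33 in TRAP1 KO TCM than in WT TCM (adjusted p 1.5e-06 by edgeR), where Stat3 was not called. Stat5a was not called in WT TCM against WT naive (0.03), JMJD3 cKO TCM against JMJD3 WT TCM (0.06) or JMJD3 WT TCM against WT TCM (-0.12). Whether shared reads add to these values was not tested.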

How the data were processed

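Ribo-Zero depletion, a TruSeq Stranded kit and an Illumina HiSeq instrument made the libraries, per the labels' protocols. Bowtie2, HISAT, RSEM and StringTie, with the build mm10, appear without versions or roles in the submitters' processing notes. No counting tool, strand setting or annotation release was given in the sources used here. For each library the authors deposited 1 table of whole-number counts, used as raw counts. Identifiers without a GENCODE M21 symbol (37 of 54532) held at most 0.0036% of a library.

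Tests used edgeR 4.0.16 under R 4.3.3 (TMM scaling, filterByExpr with a minimum of 10 counts, robust quasi-likelihood fit, Benjamini-Hochberg adjustment over all genes tested), with calls made at an adjusted p under 0.05. The TRAP1 line (10 libraries) and the JMJD3 line (6) were fitted apart, and comparisons between lines used all 16. A log2 fold change is from these fits with the SE of its coefficient, and CPM are on TMM-scaled totals over all 16 libraries. Centred log2 CPM for likeness had a pseudocount of 0.5 and genes of at least 5 CPM on average. Per-length values divide CPM by the union of exons. Alternatives were RLE size factors, library totals, no count filter, a filter at 50 counts, a replicate block, 1 fit of all 16 libraries, DESeq2 1.42.0 and leaving out each library. The procedure was tested on simulated data, where 100 genes with means of at least 50 counts were changed by 0.5 log2 units. It recovered 88%, 88% and 85% of these changes in WT TCM against WT naive, TRAP1 KO TCM against WT TCM and JMJD3 cKO TCM against JMJD3 WT TCM. In the difference of knockout effects it recovered 72%, and in JMJD3 WT TCM against WT TCM 86%. Smaller changes, changes in scarcer genes and changes in a large share of all genes were not simulated.

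The members and the gene lists were chosen with earlier results of these data known. Named genes were the 9 members, Trap1 and Kdm6b, up to 3 called genes per list with the smallest adjusted p, and the 2 nearest genes to members called in both TRAP1-line comparisons. Xist, the markers, Ifnb1 and the overlapping neighbours are named beside them as checks.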

Additional observations from a re-analysis of the deposited data

Results flagged for a closer look

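A direct test of the difference between the knockout effects (TRAP1 KO TCM against WT TCM, minus JMJD3 cKO TCM against JMJD3 WT TCM, in log2 units, edgeR over all 16 libraries) was past the threshold for 7 members. Irf1 had a difference of 0.59, with an effect of 0.04 in the TRAP1 line and -0.55 in the JMJD3 line. Stat3 differed by 0.36 (effects 0.05 and -0.31) and Irf2 by 0.30 (effects -0.01 and -0.31). Irf5 differed by 0.29 (effects -0.07 and -0.36), Irf7 by 0.25 (-0.09 and -0.34) and Stat2 by 0.15 (-0.29 and -0.44). Irf3 differed by 0.19 (effects 0.06 and -0.14), a call that several alternatives lost. Over all genes 37.9% passed the same test, and genotype, line and sex cannot be told apart in it. No library of TRAP1 KO TCM, the 1 group of 4, stood far from the others for any member.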

How the results depend on the processing

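Over 31 called member results the alternatives gave 569 values, of which 12 lost the call and 0 changed sign. Of 250 values for 14 uncalled results 14 changed sign and 8 passed the threshold. The sign changes were all of log2 values that were not called, the largest being 0.071 after the change. With library totals only, Irf1 in WT TCM against WT naive was -0.0036, Irf2 in TRAP1 KO TCM against WT TCM 0.0023, Irf9 in JMJD3 cKO TCM against JMJD3 WT TCM 0.071 and Stat6 in the difference of effects -0.0066. Irf9 in JMJD3 cKO TCM was 0.011 with no filter, and Irf2 in TRAP1 KO TCM 7.9e-05 at 50 counts. Leaving out single libraries gave -0.0087 to 0.046 for Irf1 and -0.025 to 0.016 for Irf3 in WT TCM, -0.051 to 0.020 for Irf2 in TRAP1 KO TCM, and -0.028 to 0.0028 for Irf9 in JMJD3 cKO TCM.

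Members called higher in TRAP1 KO TCM numbered 2, not 1, with library totals and at 50 counts, the added one being Stat3 (adjusted p 0.031 and 0.033 by edgeR). Members called higher in JMJD3 cKO TCM numbered 0 to 1 when single libraries were left out, and members called lower in JMJD3 WT TCM against WT TCM numbered 2, not 0, with library totals. Over all genes, JMJD3 cKO TCM had 3932 higher and 1571 lower with library totals (71.5% of calls higher), against 2326 and 2402 with TMM (49.2%), and 1459 higher with DESeq2. Library totals also moved the share of calls that were higher to 35.8% from 48.6% in the difference of effects and to 31.7% from 48.9% between the wild types. The median of all genes shifted by 0.08, -0.07 and -0.17 in these comparisons. The cause was not tested.

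Same-numbered libraries did not deviate together (30 pairs, correlations -0.024 to 0.033), and the main fits used no pairing. The correlations cannot show whether same-numbered libraries share an animal, since the labels do not say. With a replicate block 2791 genes were higher and 2786 lower in TRAP1 KO TCM, against 2990 and 2954 without it, Irf2 there was 0.020, and no member's call changed. Of the interferon genes only Ifnb1 passed the filter, and only in fits that held the JMJD3 line, so differences in the others were not tested. The 18 pairs of libraries within groups differed by more than sampling noise (chi-square per degree of freedom 1.74 to 2.72).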
